A study of Mus musculus with 15 samples.

Results

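Mouse NIH3T3 fibroblasts, which are immortalised and widely used for gene transfer, were compared directly after transduction with mouse Runx3 and with mouse Runx1. The comparison took the 2 arrays titled as the Runx3 line and the 2 titled as the Runx1 line, 4 of the 15 arrays of the study, and set the first against the second without subtracting the vector arrays. Both lines carried the gene constitutively in the retroviral vector pBabe-puro, which also confers puromycin resistance. The other groups were a mouse Runx2 line (2 arrays), a human RUNX1 line (1 array), RUNX1-ER cells induced and uninduced with 4-hydroxytamoxifen (4-OHT, 2 arrays each), and empty-vector cells with and without 4-OHT (2 arrays each). All cultures were confluent after 7 days and then had ethanol (0.2%), alone or carrying 4-OHT at a labelled 0.1 mM, for 24 h, and the labels do not say which of these a constitutive line had. The titles number the arrays of a group as biological replicates, but separate cultures or transductions are not mentioned, nor whether a line was a clone or a pool. The p-values therefore reflect the spread between arrays, possibly a technical one.

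Runx1, Runx2 and Runx3 are transcription factors that share the runt domain, through which they bind the same short DNA motif together with the common partner Cbfb. Runx1 is best known from blood stem cells, Runx2 from bone, and Runx3 from T cells, sensory neurons and gut epithelium. Each can activate or repress a gene, depending on the cofactors it recruits. In fibroblasts, Runx proteins are known to change adhesion, proliferation and senescence.

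Values are given in log2 units as deposited, so that a difference of 1 unit is a 2-fold change, and array medians ran from 3.69 to 3.75 units. Dim probe sets are compressed by the normalization, so that differences at the low end are understated, and values near these medians carry no statement about whether a gene was expressed. Each of the 4 arrays was most like its own replicate (Pearson correlation over probe sets 0.99539 in the Runx3 line and 0.99558 in the Runx1 line), and replicates differed with an SD of 0.19 in the Runx3 line and 0.183 in the Runx1 line over genes. Fibroblast markers averaged 9.88 to 9.89 units on the Runx3 arrays and 9.97 to 10.05 units on the Runx1 arrays. Blood, endothelial and adipocyte markers averaged 3.25 to 3.69 units over the 4 arrays, with 0 of their 14 measured members passing the test between the lines. Of the 12 fibroblast markers 2 were higher (Fn1 and Col1a1) and 2 lower (Thy1 and Pdgfra) in the Runx3 line, and of 4 osteoblast markers 1 was higher (Alpl, not called without either array numbered 1). Without Runx3 replicate 2 the fibroblast markers had 1 called higher and 1 lower, without Runx1 replicate 1 they had 1 higher, and without Runx1 replicate 2 they had 1 lower.

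The inserted genes were examined first. Runx1 read 4.54 and 4.45 units on the Runx3 arrays against 9.11 and 9.30 units on the Runx1 arrays, a difference of −4.71 ± 0.12 (SE, adjusted p = 1.76e-10). The Runx3 arrays lay beside the vector arrays at 4.56 and 4.75 units (Runx3 line minus vector −0.15, adjusted p = 0.569), and the high values were those of the line that carried the insert. Another Runx1 probe set differed by −3.0, while the remaining ones differed by −0.10 to −0.43 and did not pass. Runx3 itself read 4.46 and 3.96 units on the Runx3 arrays against 4.39 and 4.26 units on the Runx1 arrays (difference −0.12 ± 0.15, adjusted p = 0.769), and its other probe set differed by 0.08. The inserted Runx3 was thus not seen by either probe set. Where their probes lie relative to the inserted sequence is not given in the sources used here, so the Runx3 label rests on the titles. Cbfb, the shared partner, read 9.59 and 9.52 units on the Runx3 arrays against 9.49 and 9.48 units on the Runx1 arrays and did not pass the test (adjusted p = 0.78). Levels of the 2 inserted proteins cannot be set against each other from these data.

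Of 18193 genes, each represented by its brightest probe set, 1186 differed between the lines at an adjusted p under 0.05 (6.52%). Of these, 434 were higher in the Runx3 line (2.39%) and 752 were lower (4.13%). The median rise was 0.54 units and the median fall was −0.57, and 59 rises and 86 falls reached 1 unit. At an unadjusted p under 0.05, 3230 genes passed. The Runx3 and Runx1 arrays did not overlap for any of the 1186 genes, nor for 45.4% of all genes. A fit to the 4 arrays alone called 709 genes, of which 672 were among the 1186. Leaving out Runx3 replicate 1 left 802 calls and leaving out Runx3 replicate 2 left 641, and the fits that dropped Runx1 replicate 1 or 2 had 672 and 679. Set against the vector, the Runx3 line had 1705 calls (9.37%) and the Runx1 line 309 (1.7%), 2 comparisons that share the vector arrays.

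**Figure D1:**
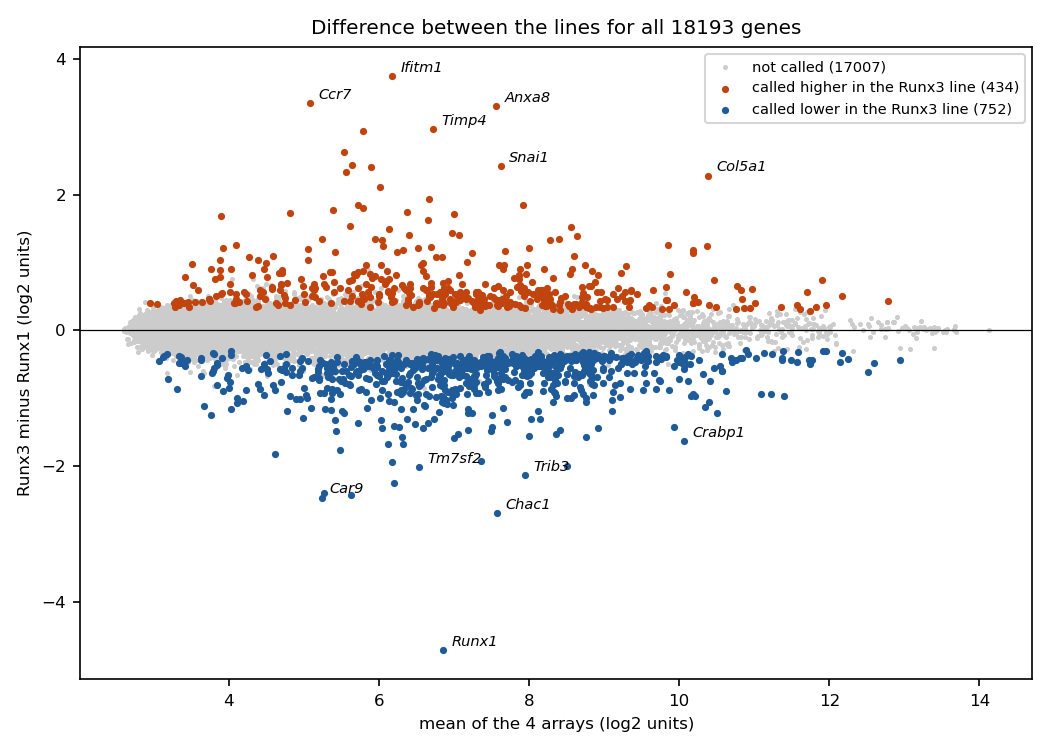
Difference between the Runx3 and Runx1 lines (vertical axis, log2 units, Runx3 minus Runx1) against the mean of the 4 arrays (horizontal axis, log2 units) for 18193 genes. Each point is a gene, with 434 called higher in the Runx3 line, 752 called lower and the rest in grey; the Runx1 point at −4.71 reads the inserted gene.

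Ifitm1, Ccr7, Anxa8 and Timp4 rose most in the Runx3 line over the Runx1 line. Ifitm1, an interferon-inducible membrane protein that hinders virus entry, read 8.38 and 7.72 units on the Runx3 arrays against 4.13 and 4.46 units on the Runx1 arrays, a difference of 3.75 ± 0.20 (SE, adjusted p = 2.4e-07), or 13.5-fold. Ccr7, the receptor for the lymphoid chemokines Ccl19 and Ccl21, read 6.81 and 6.71 units on the Runx3 arrays against 3.29 and 3.53 units on the Runx1 arrays (3.35 ± 0.13, adjusted p = 2.05e-08). The Runx1 values of Ccr7 lay below the median probe set and beside those of the vector (3.47 and 3.33 units). Anxa8, a calcium-dependent phospholipid-binding protein, read 9.15 and 9.26 units on the Runx3 arrays against 5.98 and 5.83 units on the Runx1 arrays (3.30 ± 0.18, adjusted p = 2.46e-07), and its other probe set differed by 3.42. Timp4, an inhibitor of matrix metalloproteinases, read 8.32 and 8.08 units on the Runx3 arrays against 5.15 and 5.31 units on the Runx1 arrays (2.97 ± 0.15, adjusted p = 2.4e-07). The other Timp4 probe set differed by 4.39.

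Promoters of the leading members are shown because the 2 factors are known to share a binding motif. They are taken from RefSeq on GRCm38.p6, from 250 bases before to 50 after the gene's start, and capitals mark a match to the Runx motif TGTGGT or TGCGGT on either strand. Ifitm1 (chr7:140967826-140968125, plus strand) held none, and Anxa8 (chr14:34085729-34086028, plus strand) held 1, as ACCACA 15 bases before the start.
Ifitm1: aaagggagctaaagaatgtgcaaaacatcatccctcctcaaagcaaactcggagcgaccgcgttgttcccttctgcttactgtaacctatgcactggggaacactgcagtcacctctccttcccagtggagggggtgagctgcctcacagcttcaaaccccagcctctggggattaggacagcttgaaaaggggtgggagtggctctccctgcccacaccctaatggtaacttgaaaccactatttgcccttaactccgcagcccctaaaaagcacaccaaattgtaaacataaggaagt
Anxa8: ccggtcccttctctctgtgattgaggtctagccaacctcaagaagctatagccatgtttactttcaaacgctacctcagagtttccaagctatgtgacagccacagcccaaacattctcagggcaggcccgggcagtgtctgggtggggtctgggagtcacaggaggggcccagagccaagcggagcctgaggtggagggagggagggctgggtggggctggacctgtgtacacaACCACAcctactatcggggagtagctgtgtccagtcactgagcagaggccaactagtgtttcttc
Some genes had several promoters, and a gene was counted where any of them held the motif. A Runx motif was so found for 23.4% of 359 genes called higher and for 24.4% of 602 called lower. Of all 14452 genes with a promoter, 24.3% had one. The shares on both sides of the comparison thus lay within 1 percentage point of that of all genes with a promoter. A match is only a match of letters in this window.

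Further enzymes and signalling proteins stood beside these genes. Akr1c14, an aldo-keto reductase that acts on steroids, read 7.50 and 7.02 units on the Runx3 arrays against 4.64 and 4.00 units on the Runx1 arrays (2.94 ± 0.22, adjusted p = 4.21e-06). Elmo1, which activates Rac together with Dock proteins, read 7.12 and 7.08 units on the Runx3 arrays against 4.65 and 4.72 units on the Runx1 arrays (2.41 ± 0.09, adjusted p = 2.05e-08), while its other probe sets differed by 0.12 and 1.81. Cyp1b1, a cytochrome P450 of steroids and xenobiotics, read 8.84 and 8.83 units on the Runx3 arrays against 6.94 and 7.06 units on the Runx1 arrays (1.84 ± 0.09, adjusted p = 1.89e-07). Cyp1b1 was above the vector arrays in both lines, by 3.13 in the Runx3 line and by 1.29 in the Runx1 line. Agt, the precursor of angiotensin, differed by 1.84 ± 0.18 (adjusted p = 3.34e-05), and Rasl11b, a small GTPase of the Ras family, by 1.80 ± 0.14 (adjusted p = 7.18e-06). Ptger4, a prostaglandin E2 receptor, read 7.71 and 7.57 units on the Runx3 arrays against 5.89 and 5.52 units on the Runx1 arrays (1.94 ± 0.18, adjusted p = 2.34e-05). Its vector arrays lay between the lines, at 6.99 and 6.55 units.

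Beside Runx1 itself, the Runx3 line had its largest fall in Chac1. Chac1, which degrades glutathione, read 6.07 and 6.38 units on the Runx3 arrays against 8.93 and 8.91 units on the Runx1 arrays (−2.69 ± 0.23, adjusted p = 1.6e-05). Car9, a carbonic anhydrase at the cell surface, read 4.29 and 3.72 units on the Runx3 arrays against 6.30 and 6.62 units on the Runx1 arrays (−2.46 ± 0.22, adjusted p = 1.71e-05), and the Runx3 arrays also lay below the vector arrays at 6.49 and 6.56 units. Usp17la, a deubiquitinase of a family of near-identical copies that probes may not separate, fell by 2.43 ± 0.16 (adjusted p = 1.91e-06). Cp, the copper-carrying ferroxidase ceruloplasmin, read 4.13 and 4.00 units on the Runx3 arrays against 6.57 and 6.37 units on the Runx1 arrays (−2.40 ± 0.17, adjusted p = 3.75e-06). For Cp the Runx3 arrays were at the vector level of 4.14 and 3.91 units, and the Runx1 arrays were the ones that stood apart. Ptgs2, the inducible cyclooxygenase, read 5.24 and 4.91 units on the Runx3 arrays against 7.63 and 7.01 units on the Runx1 arrays (−2.25 ± 0.24, adjusted p = 8.09e-05). Here the Runx1 arrays lay beside the vector arrays, at 7.40 and 7.06 units.

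Glipr1, a secreted protein of the CAP family, had the same arrangement as Cp: 5.50 and 5.48 units on the Runx3 arrays and 7.15 and 7.17 units on the Runx1 arrays, with the vector at 5.54 and 5.52 units (Runx3 minus Runx1 −1.67 ± 0.11, adjusted p = 1.57e-06; its other probe set differed by 0.25 and did not pass). Pde8b, a cyclic AMP phosphodiesterase, read 4.78 and 4.41 units on the Runx3 arrays against 6.40 and 6.32 units on the Runx1 arrays (−1.76 ± 0.13, adjusted p = 3.31e-06). Mrgprf, an orphan G protein-coupled receptor, read 5.21 and 5.36 units on the Runx3 arrays against 6.86 and 7.05 units on the Runx1 arrays (−1.67 ± 0.13, adjusted p = 7.6e-06). Both lines were below the vector for these 2 genes, Pde8b by −2.66 in the Runx3 line and −0.89 in the Runx1 line, and Mrgprf by −2.26 in the Runx3 line and −0.59 in the Runx1 line. Crabp1, a carrier of retinoic acid inside the cell, read 9.33 and 9.16 units on the Runx3 arrays against 10.84 and 10.90 units on the Runx1 arrays (−1.63 ± 0.10, adjusted p = 1.39e-06).

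**Figure D2:**
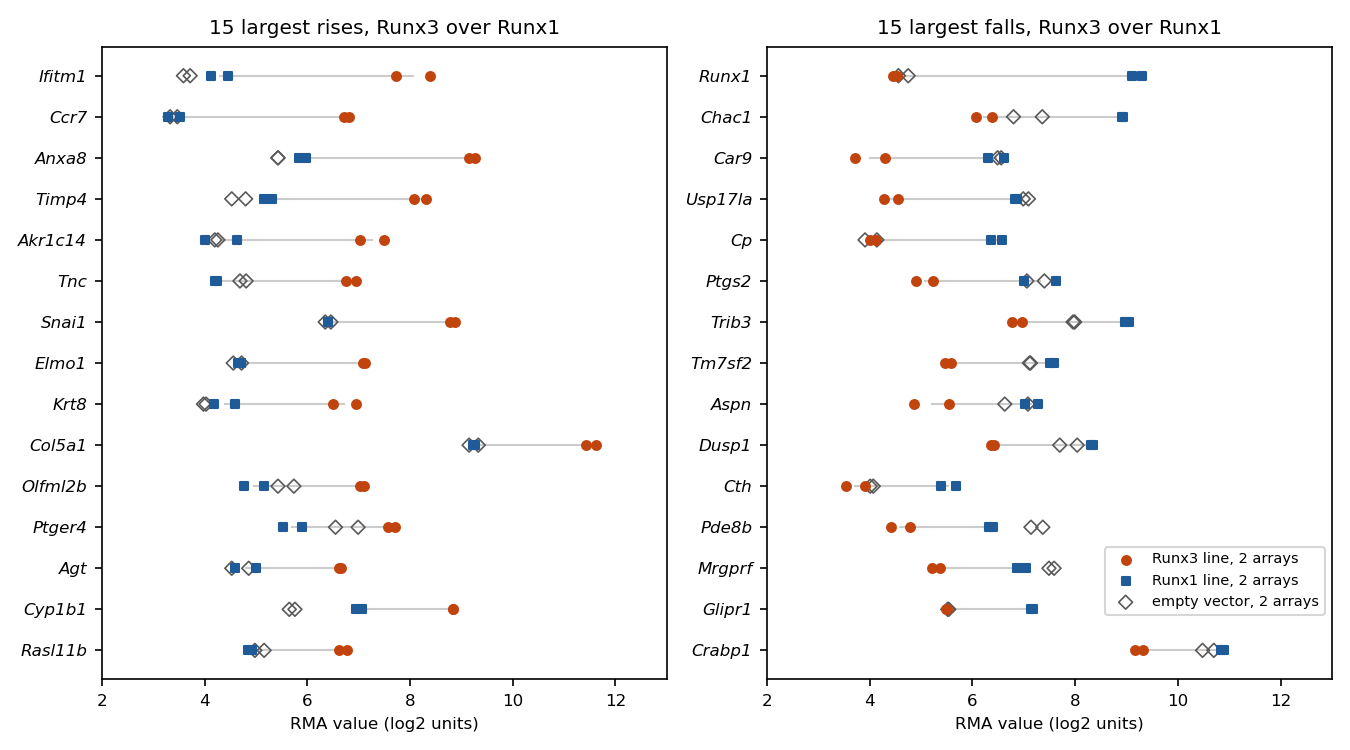
RMA values (log2 units) on each array for the 15 genes with the largest rise (left) and the 15 with the largest fall (right) in the Runx3 line over the Runx1 line; circles are the 2 Runx3 arrays, squares the 2 Runx1 arrays, open diamonds the 2 vector arrays, and grey lines join the means of the 2 lines. Most Runx1 squares among the rises lie near the vector diamonds, while among the falls both Runx1 arrays lie above both vector arrays for Runx1, Chac1, Cp, Trib3, Tm7sf2, Dusp1, Cth, Glipr1 and Crabp1.

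Matrix genes moved in both directions. Among 31 measured collagens and collagen-processing enzymes, 8 rose and 6 fell, with a median difference of −0.03 against 0.01 over all genes. Col5a1, a chain of fibrillar collagen V, read 11.42 and 11.63 units on the Runx3 arrays against 9.23 and 9.26 units on the Runx1 arrays (2.28 ± 0.12, adjusted p = 2.4e-07), and its other probe sets differed by 2.01 and 2.14. Col18a1, whose C-terminal fragment is endostatin, differed by 1.75 ± 0.12 (adjusted p = 2.48e-06), and the collagen VI chains Col6a1 and Col6a2 by 1.14 and 1.18. In the other direction, Col8a1, a network-forming collagen, read 5.61 and 5.43 units on the Runx3 arrays against 7.08 and 7.10 units on the Runx1 arrays (−1.57 ± 0.14, adjusted p = 1.53e-05). Among the chains of basement membrane collagen IV, picked out after their values were seen, Col4a1 and Col4a2 fell by 0.80 and 0.98 while Col4a5 rose by 0.46.

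Among 47 genes of elastic fibres, proteoglycans and matricellular proteins, 7 rose and 11 fell (median 0.04). Tnc, the matricellular glycoprotein tenascin C, read 6.75 and 6.95 units on the Runx3 arrays against 4.25 and 4.20 units on the Runx1 arrays (2.62 ± 0.13, adjusted p = 1.89e-07), although its dimmer second probe set differed by only 0.06. The secreted CCN proteins Ccn4 and Ccn5 rose by 1.62 ± 0.15 and 1.35 ± 0.22, and Emilin1, a glycoprotein of elastic fibres, by 1.53 ± 0.15. Olfml2b, a secreted olfactomedin-domain protein, read 7.10 and 7.03 units on the Runx3 arrays against 4.76 and 5.15 units on the Runx1 arrays (2.11 ± 0.16, adjusted p = 6.3e-06). Aspn, the small leucine-rich proteoglycan asporin, read 5.55 and 4.87 units on the Runx3 arrays against 7.27 and 7.02 units on the Runx1 arrays (−1.94 ± 0.25, adjusted p = 0.000394). Aspn was also the named gene with the lowest value for 4-OHT in vector cells (−0.76), and whether the lines differed in 4-OHT was not tested. Of 29 metalloproteinases and inhibitors 3 rose, namely Timp4, the aggrecanase Adamts4 (1.25 ± 0.14, with another probe set at 0.35 that did not pass) and the urokinase receptor Plaur (0.60 ± 0.10), and 6 fell. Those 6 became 4 without Runx3 replicate 1, 3 without Runx3 or Runx1 replicate 2 and 2 without Runx1 replicate 1. The 11 falls among matricellular and related genes became 8 without Runx3 replicate 1 and 6 without any of the other 3 arrays.

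Adhesion receptors and epithelial genes changed member by member. Of 33 integrin and focal adhesion genes, 2 rose (6.06%, against 2.39% of all genes) and 5 fell (15.2%, against 4.13%). The risers were Sdc1, the heparan sulfate proteoglycan syndecan 1 (0.95 ± 0.09, adjusted p = 3.87e-05), and the integrin chain Itgb5 (0.71 ± 0.12, adjusted p = 0.00248), while the laminin receptor chain Itga6 fell by 0.98 ± 0.16 (adjusted p = 0.00174). Of the 5 falls 1 was left without Runx3 replicate 1 and 2 without any of the other 3 arrays. Krt8, an epithelial keratin, read 6.50 and 6.94 units on the Runx3 arrays against 4.60 and 4.18 units on the Runx1 arrays (2.33 ± 0.20, adjusted p = 1.28e-05), with 2 further probe sets at 2.33 and 2.32. Cdh1, the epithelial adhesion molecule E-cadherin, read 4.42 and 4.01 units on the Runx3 arrays against 3.14 and 3.49 units on the Runx1 arrays (0.90 ± 0.15, adjusted p = 0.00195), all close to the dim end of the array. The 7 epithelial markers averaged 4.26 units on both Runx3 arrays and 3.75 to 3.80 units on the Runx1 arrays, with Krt8 and Cdh1 called and Krt18, Cldn4 and Esrp1 below the array median throughout. A share of other cells in the cultures was not tested.

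Transcription factors of the epithelial to mesenchymal transition split. Snai1, a repressor whose known targets include Cdh1, read 8.78 and 8.88 units on the Runx3 arrays against 6.41 and 6.40 units on the Runx1 arrays (2.42 ± 0.20, adjusted p = 1.03e-05). Its relative Snai2 read 8.27 and 8.13 units on the Runx3 arrays against 9.73 and 9.53 units on the Runx1 arrays (−1.44 ± 0.14, adjusted p = 3.25e-05), and Prrx1, a mesenchymal homeobox factor, read 8.48 and 8.57 units on the Runx3 arrays against 9.66 and 9.74 units on the Runx1 arrays (−1.18 ± 0.09, adjusted p = 5.66e-06). Snai1 was the 1 member of the 14 that rose, and 6 fell (median −0.32). Without any 1 of the 4 arrays 4 fell and Snai1 rose.

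Cholesterol synthesis was lower nearly throughout in the Runx3 line. In this pathway acetyl-CoA is built into mevalonate, isoprenoids and finally sterols, and its genes are known to be driven together by SREBP2. Of 20 measured members 17 fell and 0 rose, with a median of −0.75. Tm7sf2, a sterol reductase late in the pathway, read 5.46 and 5.59 units on the Runx3 arrays against 7.58 and 7.51 units on the Runx1 arrays (−2.01 ± 0.11, adjusted p = 3.03e-07). Pmvk, the phosphomevalonate kinase, read 6.04 and 6.08 units on the Runx3 arrays against 7.28 and 7.05 units on the Runx1 arrays (−1.11 ± 0.10, adjusted p = 1.53e-05). The later enzymes Msmo1 and Nsdhl differed by −0.97 and −0.87 and the farnesyl diphosphate synthase Fdps by −0.93, although the other probe sets of Msmo1 (0.06) and Fdps (0.19) did not pass. Early and late steps were thus among the falls, and 15 or 16 of the 20 fell without any 1 of the 4 arrays. The 3 members that did not pass, picked out by that, were Ebp (−0.05), Hsd17b7 (0.09) and Srebf2, which codes for SREBP2 (−0.04). Set against the vector, 17 of the 20 fell and 1 rose in the Runx3 line (median −0.64), and 0 fell or rose in the Runx1 line (median 0.16), in comparisons that share the vector arrays.

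Fatty acid genes followed in part, with 6 of 20 lower and 0 higher (median −0.26). Acss2, which makes acetyl-CoA from acetate, read 5.91 and 6.05 units on the Runx3 arrays against 7.41 and 7.27 units on the Runx1 arrays (−1.36 ± 0.14, adjusted p = 5.93e-05). Acsl3, which activates long-chain fatty acids, fell by 0.90 ± 0.09, and the desaturase Scd1 by 0.62 ± 0.09. Among 31 genes of sphingolipid metabolism 11 fell and 2 rose (median −0.13). The largest rise there was Ugcg, the first enzyme of glycosphingolipid synthesis, at 8.64 and 8.58 units on the Runx3 arrays against 7.31 and 7.48 units on the Runx1 arrays (1.21 ± 0.16, adjusted p = 0.000414). S1pr3, a receptor for sphingosine 1-phosphate, fell by 1.02 ± 0.11 (adjusted p = 9.33e-05). The 11 falls of this list became 8 without Runx3 replicate 1 and 5 without Runx1 replicate 1, and 2 were left when either array numbered 2 was dropped.

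Genes of the amino acid stress response, which the factor ATF4 is known to switch on when amino acids run short or the endoplasmic reticulum is stressed, were lower in the Runx3 line. Of 36 members 18 fell and 0 rose (median −0.46), and 13 to 15 fell without any 1 of the 4 arrays. Besides Chac1, Trib3, a pseudokinase of this response, read 6.78 and 6.97 units on the Runx3 arrays against 9.05 and 8.97 units on the Runx1 arrays (−2.13 ± 0.15, adjusted p = 3.35e-06). Cth, which makes cysteine from cystathionine, read 3.53 and 3.90 units on the Runx3 arrays against 5.38 and 5.69 units on the Runx1 arrays (−1.82 ± 0.17, adjusted p = 2.7e-05). Ddit3, the stress factor CHOP, read 9.29 and 9.14 units on the Runx3 arrays against 10.58 and 10.69 units on the Runx1 arrays (−1.42 ± 0.16, adjusted p = 0.000113; its other probe set differed by −0.04). Atf4 itself, picked out after its value was seen, fell by 1.12. Of 20 genes of the unfolded protein response and endoplasmic reticulum chaperones 1 fell, Herpud1 (−0.96 ± 0.14), and 0 rose (median −0.04). That fall was 5.0% of the list, where 4.13% of all genes were lower.

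For the ATF4 list the lines lay on both sides of the vector. Against it, 11 of 36 members rose and 0 fell in the Runx1 line (median 0.27), and 1 rose and 7 fell in the Runx3 line (median −0.20), again with shared vector arrays. In RUNX1-ER cells, Chac1 read 7.45 and 7.95 units with induction and 8.54 and 8.40 units without it, against 7.36 and 6.80 units in vector cells. The Chac1 promoter (chr2:119350992-119351291, plus strand, RefSeq, GRCm38.p6) is shown because Chac1 had the largest fall beside Runx1. It holds a match, in capitals, to the ATF4 motif TGATGNAA, read on the opposite strand 193 bases before the start.
Chac1: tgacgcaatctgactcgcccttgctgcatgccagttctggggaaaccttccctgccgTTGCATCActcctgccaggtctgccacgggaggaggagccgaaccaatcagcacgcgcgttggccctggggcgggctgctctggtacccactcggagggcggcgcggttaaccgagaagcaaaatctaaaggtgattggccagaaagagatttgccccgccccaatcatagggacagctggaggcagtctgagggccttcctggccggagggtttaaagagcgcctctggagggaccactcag
Counted per gene, this motif was found on either strand for 11 of 31 list members with a promoter (35.5%). It was found for 4 of the 15 called lower (26.7%), against 3.24% of all 14452 genes with a promoter. Among all 602 genes called lower with a promoter it was found for 5.65%. The list holds genes known to respond to ATF4, so its share does not bear on the difference between the lines.

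Hypoxia genes and glycolysis were lower as well. In low oxygen, HIF factors are known to raise glucose uptake, glycolysis and a set of cell-surface and mitochondrial proteins. Of 18 glycolysis genes 10 fell and 0 rose (median −0.39), and of 23 other hypoxia genes 10 fell and 1 rose (median −0.38). Slc2a1, the glucose transporter GLUT1, read 9.69 and 9.73 units on the Runx3 arrays against 10.71 and 10.59 units on the Runx1 arrays (−0.94 ± 0.11, adjusted p = 0.000181), and its other probe sets differed by −0.95 and −0.94. Pdk1, a kinase that inhibits pyruvate dehydrogenase, fell by 0.91 ± 0.16 (adjusted p = 0.00335). Ero1a, an oxidase of protein folding, read 7.27 and 7.17 units on the Runx3 arrays against 8.87 and 8.66 units on the Runx1 arrays (−1.55 ± 0.14, adjusted p = 2.35e-05). Higd1a and Bnip3, which code for mitochondrial proteins, differed by −1.22 ± 0.13 and −1.06 ± 0.13, and the prolyl hydroxylase Egln3 fell by 1.17 ± 0.18 (its other probe set differed by −0.33 and did not pass). The exception, named after its value was seen, was the carbonic anhydrase Car12 (0.38), which was not called without either array numbered 2. The 10 falls in glycolysis became 6 and 2 when Runx3 replicate 1 or 2 was dropped and 3 and 5 when Runx1 replicate 1 or 2 was dropped, while 9 or 10 of the other hypoxia genes fell each time. The HIF core motif ACGTG occurred on either strand for 26.1% of all genes with a promoter. It lay in a promoter of 70.6% of 17 glycolysis genes and of 76.5% of 17 genes of the other list. Among the members called lower it lay in a promoter of 5 of 10 glycolysis genes and of 7 of 8 genes of the other list (87.5%). Among all 602 genes called lower with a promoter the share was 29.6%. Both lists hold genes of processes that HIF is known to raise, so their shares do not bear on the difference between the lines.

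Negative regulators of ERK signalling and immediate early genes came next. ERK is the kinase at the end of the Ras cascade, and its activity is known to induce its own inhibitors. Of 25 such feedback and RGS genes 14 fell and 0 rose (median −0.47). Dusp1, a phosphatase of MAP kinases, read 6.37 and 6.43 units on the Runx3 arrays against 8.35 and 8.30 units on the Runx1 arrays (−1.92 ± 0.12, adjusted p = 1.57e-06). Dusp6, a phosphatase of ERK, read 6.71 and 6.52 units on the Runx3 arrays against 7.82 and 7.71 units on the Runx1 arrays (−1.15 ± 0.14, adjusted p = 0.000201). Differences of −1.29 ± 0.18, −1.14 ± 0.18 and −1.07 ± 0.13 were seen for Phlda1, the EGF receptor inhibitor Errfi1 and the phosphatase Dusp4. For Dusp4 the Runx3 line lay near the vector (−0.09) and the Runx1 line above it (0.98). The 14 falls became 8 without Runx1 replicate 1 and 10 to 12 without another array. Of 31 immediate early, AP-1 and Id genes 8 fell and 2 rose (median −0.20). Jun, a subunit of AP-1, read 6.81 and 6.79 units on the Runx3 arrays against 8.37 and 8.07 units on the Runx1 arrays (−1.42 ± 0.17, adjusted p = 0.000166), whereas its relative Junb read 7.24 and 7.39 units on the Runx3 arrays against 6.20 and 5.97 units on the Runx1 arrays (1.23 ± 0.19, adjusted p = 0.00122). The other riser was Id1, an inhibitor of basic helix-loop-helix factors (1.39 ± 0.12, adjusted p = 1.6e-05). Against the vector, Id1 differed by 0.37 in the Runx3 line, which did not pass, and by −1.02 in the Runx1 line. The 8 falls became 5 without Runx3 replicate 1, and 6 or 7 without another array.

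Growth factors and receptor kinases fell where they changed, with 12 of 49 lower and 0 higher (median −0.05). Hbegf, a ligand of the EGF receptor, read 6.20 and 6.22 units on the Runx3 arrays against 7.90 and 7.69 units on the Runx1 arrays (−1.59 ± 0.15, adjusted p = 3.29e-05). Erbb3, a receptor of neuregulins, read 5.47 and 5.51 units on the Runx3 arrays against 6.89 and 6.91 units on the Runx1 arrays (−1.41 ± 0.10, adjusted p = 2.04e-06; its dimmer probe set differed by −0.23). Pdgfra, a receptor of platelet-derived growth factor, fell by 0.74 ± 0.10 (adjusted p = 0.000545). Without Runx1 replicate 2, 1 gene of this list was called higher. Of 41 chemokines, cytokines and receptors 3 rose (7.32%, against 2.39% of all genes) and 4 fell (9.76%, against 4.13%). Fewer of them fell without Runx1 replicate 2. Beside Ccr7, the cytokine Il18 rose by 0.97 ± 0.08, and the chemokine-scavenging receptor Ackr3 fell by 1.47 ± 0.12 (adjusted p = 9.27e-06). Of 39 interferon-stimulated genes 2 rose (5.13%) and 3 fell (7.69%), with a median of 0.01. The risers were Ifitm1 and its neighbour in the family, Ifitm3 (0.56 ± 0.09, adjusted p = 0.00129). Among the falls, B2m (−0.31) was not called with the 4 arrays alone.

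Genes of mitosis were lower in the Runx3 line. Of 29 mitotic genes 19 fell and 0 rose, and all 29 had a difference below 0 (median −0.44). Of 33 genes of S phase and DNA replication 3 rose (9.09%, against 2.39% of all genes) and 0 fell (median 0.06). Prc1, a microtubule-bundling protein of the spindle midzone, read 7.99 and 7.82 units on the Runx3 arrays against 8.59 and 8.59 units on the Runx1 arrays (−0.68 ± 0.09, adjusted p = 0.000604). Tpx2, a spindle assembly factor, fell by 0.66 ± 0.09, Nusap1, which binds spindle microtubules, by 0.70 ± 0.11 (its other probe set differed by −0.03), and Aurkb, the kinase Aurora B, by 0.61 ± 0.10. These were small differences over many members: 9 to 11 mitotic genes fell without any 1 of the 4 arrays, 9 with the 4 arrays alone, and 0 rose in these fits. The S phase risers were Mcm7, Fen1 and Chaf1b, at 0.35 to 0.42, and at most 1 rose without an array. Among D cyclins and cell cycle inhibitors, Cdkn2d fell by 0.85 ± 0.08 and Ccnd2 by 0.65 ± 0.11. How the cultures were distributed over the cell cycle was not measured.

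Ribosome biogenesis moved upward, with 14 of 30 genes higher, 0 lower and 29 with a difference above 0 (median 0.38). These genes code for the RNA polymerase, the processing factors and the small nucleolar particles that make ribosomal RNA. Nolc1, a nucleolar phosphoprotein, read 8.13 and 8.30 units on the Runx3 arrays against 7.48 and 7.60 units on the Runx1 arrays (0.67 ± 0.11, adjusted p = 0.00172). Nhp2, a protein of H/ACA particles, read 10.12 and 10.17 units on the Runx3 arrays against 9.49 and 9.53 units on the Runx1 arrays (0.64 ± 0.10, adjusted p = 0.00121). Against the vector 15 of the 30 rose in the Runx3 line (median 0.41) and 0 in the Runx1 line (median −0.02), with the vector arrays shared. The 14 rises became 8 and 4 when Runx3 replicate 1 or 2 was dropped and 7 and 5 when Runx1 replicate 1 or 2 was dropped. Respiratory chain genes, by comparison, had 1 of 28 higher (3.57%, against 2.39% of all genes) and 0 lower (median 0.07). That rise was lost without any 1 of the 4 arrays.

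**Figure D3:**
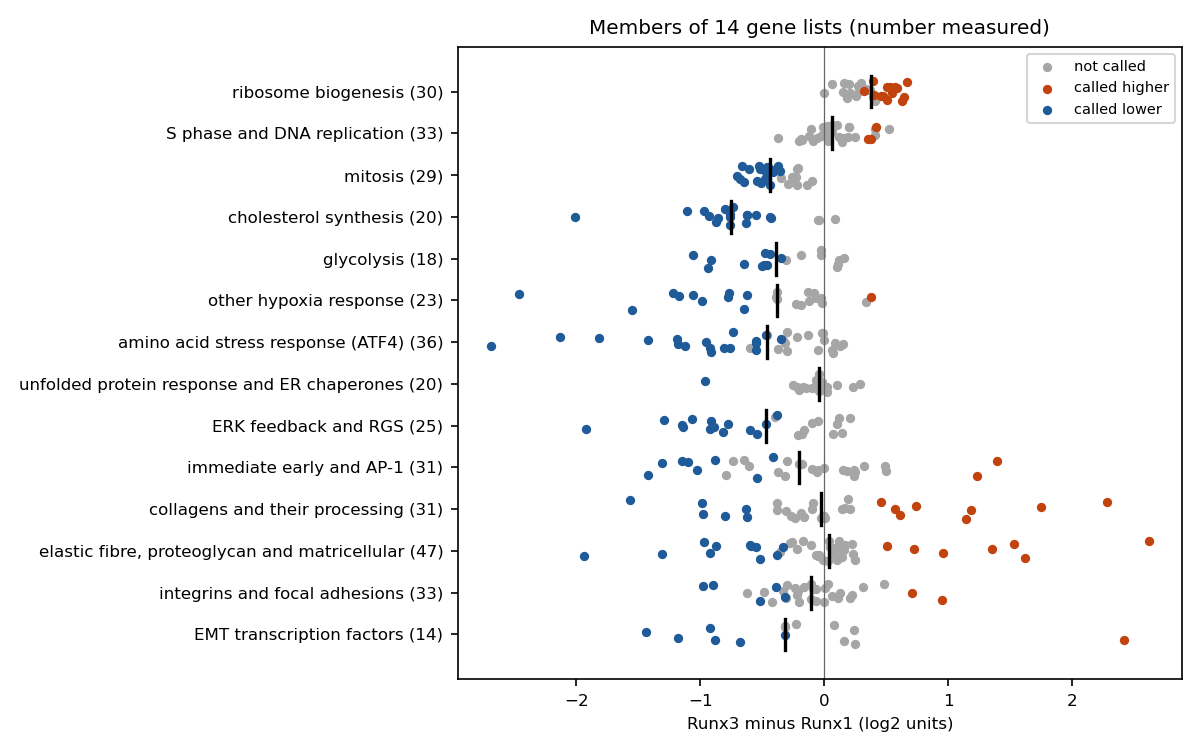
Difference between the Runx3 and Runx1 lines (horizontal axis, log2 units, Runx3 minus Runx1) for each measured member of 14 gene lists, with the number measured in brackets. Points are genes, coloured where called, and black bars are list medians; mitosis lies wholly below 0 (29 of 29), ribosome biogenesis almost wholly above it (29 of 30), and collagens spread from −1.57 to 2.28.

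Genes of the tissues in which Runx genes are best known were called at about the share of all genes (2.39% higher and 4.13% lower). Of 28 known Runx targets of blood cells 1 fell, the sialomucin Cd34, at 7.78 and 7.57 units on the Runx3 arrays against 9.20 and 9.08 units on the Runx1 arrays (−1.46 ± 0.10, adjusted p = 2.48e-06), and 0 rose, so that 3.57% of the list were lower. Of 27 osteoblast and chondrocyte genes 1 rose and 1 fell (3.7% each), and without any 1 of the 4 arrays the fall was lost, as was the rise without either array numbered 1. Of 40 genes listed for the Wnt pathway 3 rose (7.5%) and 2 fell (5.0%). The largest difference was that of the receptor Fzd7 (1.35 ± 0.13, adjusted p = 2.71e-05), whose other probe set differed by −0.04. The falls were Wnt5a and Tcf4, and they did not both stay called without any 1 of the 4 arrays. Tcf4 is the symbol of a basic helix-loop-helix factor, also counted above among factors of the epithelial to mesenchymal transition. Of 19 Notch pathway genes 1 fell (5.26%), Rbpj, the DNA-binding factor of the pathway (−0.95 ± 0.08, adjusted p = 1.2e-05), and 0 rose. The share lower was larger among 34 genes of the Bcl2 family, caspases and death receptors, where 7 fell (20.6%) and 1 rose (2.94%). Fewer of them fell without any 1 of the 4 arrays, and the rise was lost without either array numbered 2. Casp4, an inflammatory caspase, read 5.22 and 4.86 units on the Runx3 arrays against 6.28 and 6.54 units on the Runx1 arrays (−1.37 ± 0.19, adjusted p = 0.000591). For Casp4 the Runx3 line lay near the vector (0.14) and the Runx1 line above it (1.51).

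The other Runx arrays of the study, none of which enters the difference between the Runx3 and Runx1 lines, were set beside it. Upon induction of RUNX1-ER with 4-OHT, 87.1% of the genes higher in the Runx3 than the Runx1 line had a difference above 0 (median 0.21), as did 22.2% of the genes lower there (median −0.18) and 55.8% of all genes (median 0.02). For the Runx2 line minus vector the shares above 0 were 74.9% of the higher genes, 21.5% of the lower genes and 47.2% of all genes. For the 1 array of the human RUNX1 line minus vector they were 54.8% of the higher genes, 26.3% of the lower genes and 39.7% of all genes. The vector with 4-OHT minus vector gave 30.9% of the higher genes, 40.2% of the lower genes and 38.5% of all genes. The last 3 differences share the vector arrays. Among the 59 genes higher by at least 1 unit, 94.9% were above 0 upon induction (median 0.81), 88.1% in the Runx2 line and 84.7% in the human RUNX1 line. Among the 86 lower by at least 1 unit the shares were 6.98% upon induction, 17.4% in the Runx2 line and 29.1% in the human RUNX1 line.

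Single genes followed different groups. Akr1c14 read 7.56 and 8.05 units in the Runx2 line, 7.23 units in the human RUNX1 line and 7.22 and 7.44 units in induced RUNX1-ER cells, beside 4.35 and 4.46 units in uninduced cells. The mouse Runx1 line, at 4.64 and 4.00 units, was thus the 1 group with a constitutive or induced Runx gene that stayed near the vector (4.26 and 4.20 units). Ifitm1 read 9.65 units in the human RUNX1 line and 6.77 and 7.14 units in the Runx2 line, but 4.39 on both induced RUNX1-ER arrays. Snai1 read 8.47 and 8.50 units in induced cells and 5.74 and 6.10 units in uninduced cells, and vector cells with 4-OHT read 6.43 and 5.61 units. Ccr7 was highest in the Runx3 line, with the Runx2 line at 4.43 and 4.04 units, the human RUNX1 line at 4.77 units and induced RUNX1-ER cells at 4.58 and 4.34 units. Cp was high in both constitutive Runx1 lines, at 6.57 and 6.37 units in the mouse Runx1 line and 6.67 units in the human RUNX1 line, but read 4.21 and 3.91 units in induced RUNX1-ER cells. Glipr1 did not share that pattern, with 4.64 units in the human RUNX1 line.

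**Figure D4:**
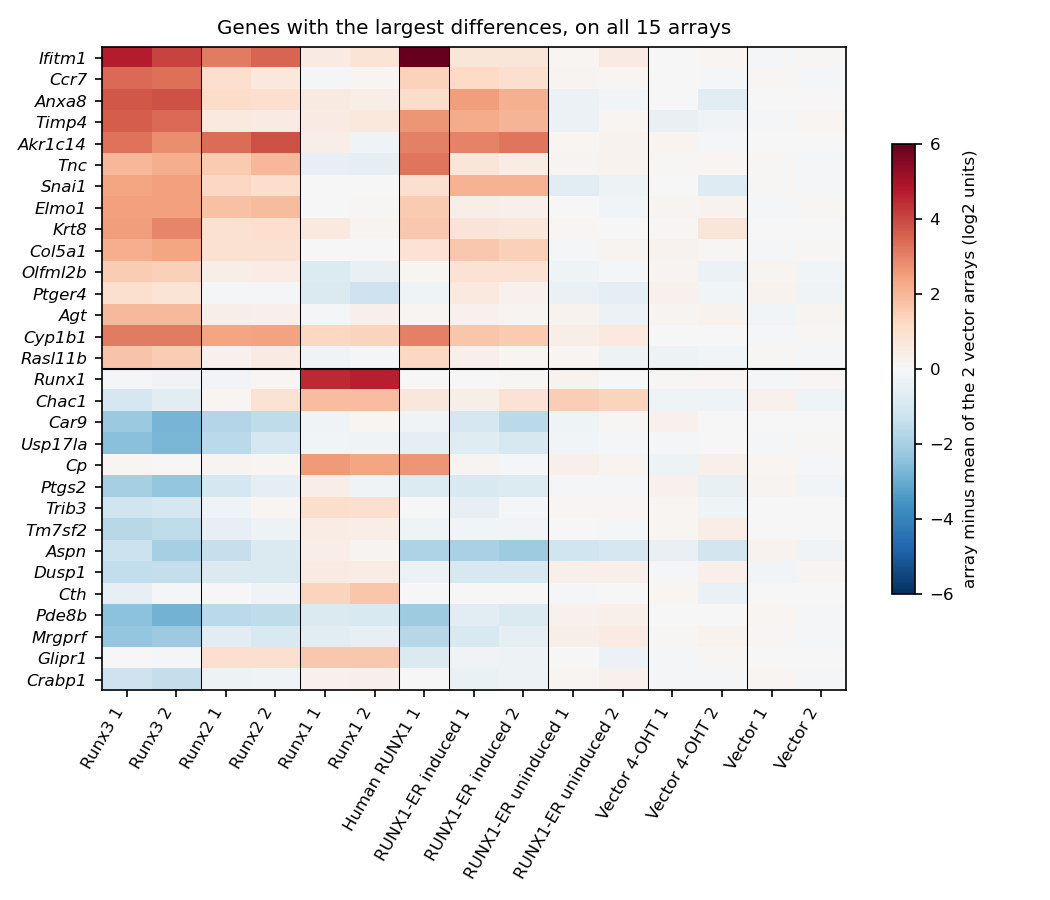
Value on each of the 15 arrays minus the mean of the 2 vector arrays (colour, log2 units; red above, blue below) for the 15 genes with the largest rise (above the line) and the 15 with the largest fall (below it) in the Runx3 line over the Runx1 line. Ifitm1, Akr1c14 and Tnc are also red in the Runx2 and human RUNX1 columns, and Cp is red in the mouse Runx1 and human RUNX1 columns.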

How the data were processed

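RNA of NIH3T3 cells was hybridised to Affymetrix arrays. Per the labels' protocols, the authors read them with GCOS and normalized them by RMA, which subtracts background, gives all arrays the same distribution and compresses dim probe sets. A shift in total RNA per cell would be invisible. The deposited values are log2 values, as their range shows. Software versions are not given in the sources.

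Of 45101 probe sets, 34945 had 1 gene symbol, 932 had several, 9160 had none and 64 were controls. A gene (18193 in all) was represented by its brightest probe set, judged by the mean of the 15 arrays. Among the named genes that were called, 116 had other probe sets, and for 47 of these none was called the same way (0 the opposite way). Group means were fitted with limma 3.58.1 in R 4.3.3 (lmFit, eBayes), using the 15 arrays together (7 residual and 5.65 prior degrees of freedom), and Runx3 minus Runx1 was the contrast. The vector arrays enter only the estimate of spread and the choice of probe set. Tests were two-sided, with Benjamini-Hochberg adjustment over all genes and a threshold of 0.05. The number of arrays limits the precision. Named genes were Runx1, Runx3, Cbfb, the 15 largest rises and 15 largest falls among called genes, and up to 5 called members per list, without predicted genes and clone names. The members and the 40 gene and 7 marker lists were chosen with earlier results of these data known. The fit was first tested on simulated data with known changes. It recovered 43.3% of changes of 0.5 units and 94% of changes of 1 unit, so smaller differences were often missed. Alternatives changed the arrays in the fit, the probe set, the filter, the normalization and the moderation, and left out each array. The replicate numbers were not used to pair samples in the main fit. Over genes, the deviations of same-numbered Runx3 and Runx1 arrays correlated at 0.0724.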

Additional observations from a re-analysis of the deposited data

Results flagged for a closer look

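For 12 genes the Runx3 line and the Runx1 line were called on opposite sides of the vector, each at an adjusted p under 0.05 by limma, and the difference between the lines was itself called. The 2 comparisons with the vector share its arrays. Gpd1l, Gpr149, Mgp and Tmsb4x were chosen after their values were seen. In 4 genes the Runx3 line was above and the Runx1 line below the vector. Ptger4, a prostaglandin E2 receptor, differed by 1.94 between the lines (Runx3 line 0.87, Runx1 line −1.07, each minus vector). Mgp, an inhibitor of calcification, differed by 1.34 (Runx3 line 0.73, Runx1 line −0.60), Gpd1l by 1.21 (Runx3 line 0.72, Runx1 line −0.49), and Tcf7l1, a factor of the Wnt pathway, by 0.81 (Runx3 line 0.32, Runx1 line −0.49).

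In the other 8 genes the Runx3 line was below and the Runx1 line above the vector. Of these, 3 belong to the ATF4 response: Chac1 at −2.69 (Runx3 line −0.85, Runx1 line 1.84), Trib3 at −2.13 (Runx3 line −1.10, Runx1 line 1.03) and Ddit3 at −1.42 (Runx3 line −0.68, Runx1 line 0.74). Hbegf, a ligand of the EGF receptor, was at −1.59 (Runx3 line −0.77, Runx1 line 0.82), and the transcription factor Snai2 at −1.44 (Runx3 line −0.64, Runx1 line 0.80). Tmsb4x, an actin-binding peptide, was at −1.57 (Runx3 line −0.97, Runx1 line 0.60), the adenylyl cyclase Adcy7 at −1.32 (Runx3 line −0.86, Runx1 line 0.45) and the receptor Gpr149 at −1.11 (Runx3 line −0.41, Runx1 line 0.71).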

How the results depend on the processing

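Of the 177 named genes that were called, 0 changed direction under 14 alternatives, but most of these alternatives could not have reversed a direction. The Runx3 and Runx1 arrays did not overlap for any of the 1186 called genes, so leaving out an array kept the sign. Settings that changed only the estimate of spread or the filter left the difference as it was. A reversal was possible only where the probe set or the values changed, so the 0 says little about stability. Of the 177 named genes, 118 stayed called under every alternative that tested them. The other 59 lost the call under at least 1, most of them in a fit without an array. Of 1186 calls (434 higher, 752 lower), a fit to the 4 arrays alone gave 709 (239 higher, 470 lower), with fewer samples behind the estimate of spread. Leaving out 1 array gave 641 to 802 calls, 218 to 280 higher and 404 to 522 lower, with the lone array of a line assumed to vary like the other groups. The other 9 settings gave 1073 to 1616 calls. With the replicate block there were 1129 calls, 1086 of them among the 1186. Whether same-numbered arrays were handled together was not tested. Of list medians of at least 0.1, that of muscle markers (0.14, 0 of 4 called) turned to −0.01 without Runx1 replicate 1. Dim probe sets limit what can be seen: values near the array medians of 3.69 to 3.75 units have no order.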

Other observations

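Axon guidance and contractile genes, not described above, also moved member by member. Of 47 guidance molecules 2 rose in the Runx3 line over the Runx1 line (4.26%, against 2.39% of all genes). Another 7 fell (14.9%, against 4.13% of all genes). The median was 0.04, and fewer fell without any 1 of the 4 arrays. Nrp2, a semaphorin and VEGF co-receptor, read 8.18 and 8.34 units on the Runx3 arrays against 7.07 and 7.12 units on the Runx1 arrays (1.17 ± 0.13, limma adjusted p = 0.000139). Slit3, a secreted Robo ligand, rose by 0.85 ± 0.14 (adjusted p = 0.00259). For Slit3 the Runx3 line lay near the vector (−0.09) and the Runx1 line below it (−0.95). Sema5a, a membrane semaphorin, read 3.15 and 3.13 units on the Runx3 arrays against 4.20 and 4.55 units on the Runx1 arrays (−1.24 ± 0.16, adjusted p = 0.000432), with the vector at 3.16 and 3.18 units. The secreted semaphorin Sema3a fell by 0.86 ± 0.11 (adjusted p = 0.000246).

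Of 34 contractile genes and SRF or YAP targets 2 rose (5.88%, against 2.39% of all genes) and 8 fell (23.5%, against 4.13%). The median was −0.12. Fewer fell without any 1 of the 4 arrays, and fewer rose without Runx3 replicate 2 or Runx1 replicate 1. The tropomyosins split: Tpm1 read 11.07 and 11.10 units on the Runx3 arrays against 10.43 and 10.45 units on the Runx1 arrays (0.65 ± 0.08, adjusted p = 0.000296), and Tpm4 read 10.26 and 10.28 units on the Runx3 arrays against 10.85 and 10.88 units on the Runx1 arrays (−0.60 ± 0.08, adjusted p = 0.000393). Ankrd1, a YAP target, fell by 0.95 ± 0.12 (adjusted p = 0.00026). Of 40 prostaglandin and cyclic nucleotide genes 2 rose (5.0%, against 2.39% of all genes) and 7 fell (17.5%, against 4.13%). The phosphodiesterase Pde4b fell by 0.99 ± 0.10 (adjusted p = 4.78e-05). Cebpd, an early adipogenic factor, read 7.05 and 7.02 units on the Runx3 arrays against 8.38 and 8.39 units on the Runx1 arrays (−1.35 ± 0.12, adjusted p = 2.02e-05), and both lines lay below the vector at 9.53 and 9.22 units.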
